A study of Mus musculus with 10 samples.

Results

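The response to N-acetylcysteine (NAC) is described here in 6 of the 10 bulk RNA sequencing libraries of the series, 3 with NAC and 3 without, across all measured genes. The libraries were chosen by their reads of Cd4, the co-receptor gene of helper T cells, which had to lie under 5 CPM, that is, counts scaled to a common library size. Libraries 3, 4 and 5 of both groups met this limit. Cd4 was at 0.752, 1.95 and 1.25 CPM in control 3, 4 and 5, and at 2.25, 2.8 and 2.6 CPM in NAC 3, 4 and 5. The 4 libraries left out, numbered 1 and 2, had 467 to 545 CPM, so the limit lay in a wide gap. Since Cd4 chose the libraries, its level is given as a description with no test.

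All libraries came from CD8+ T cells of the spleen of wild-type mice, held in culture for 5 days. The control cells grew in normal medium with no agent and the treated cells in medium with 10 mM NAC. The sources used here do not give the strain, sex or age of the mice, any stimulus in the medium or any pooling of animals. The labels also do not say that libraries of 1 group came from separate animals or cultures. P-values therefore reflect the spread among these libraries alone, and that spread may be technical.

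NAC is a small thiol that enters cells, gives up cysteine for the synthesis of glutathione and can reduce disulfides itself. Activated CD8+ T cells take up sugar and amino acids, divide, and make cytokines, chemokines and granzymes, while naive and stem-like cells keep the transcription factor TCF1 and express genes of quiescence. Oxidants and electrophiles release the transcription factor NRF2, which drives antioxidant genes; free zinc activates MTF1, which drives metallothioneins; and low oxygen stabilizes HIF-1, which drives genes of glycolysis and of mitochondrial turnover. The comparison asks how the presence of NAC in culture changes the messenger RNA of these cells.

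Each library had between 13.3 and 17.37 M counted reads, and 11407 of the 21898 listed genes passed the filter on low counts and were tested. Principal component 1 of log2 CPM held 65.1% of the variance and parted the NAC libraries from the controls, while component 2 held 10.2%. Libraries of 1 group still differed by more than sampling noise, with a chi-square of 2.37 to 3.4 per degree of freedom over genes, against 18.7 to 22.4 between the groups. Libraries of 1 group varied by a common coefficient of only 3.6%, so that small differences can pass the test. Both chains of the CD8 co-receptor were abundant, as the label of CD8+ T cells asks. Cd8a was at 518, 494 and 484 CPM in control 3, 4 and 5 and 651, 645 and 662 CPM in NAC 3, 4 and 5. Cd8b1 was at 279.8, 281 and 288 CPM in the control libraries and 394, 366 and 409.9 CPM in the NAC libraries. Here and below, CPM values are TMM-normalized.

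NAC changed a large share of the transcriptome by small amounts. By edgeR's quasi-likelihood test 5557 of the 11407 tested genes passed an adjusted p of 0.05, which is 48.7%. Of these, 2706 were higher with NAC (23.7% of tested genes) and 2851 were lower (25%). The median called gene rose 1.28-fold or fell 1.19-fold, and 72.9% of the rises and 87.5% of the falls were under 1.5-fold. At least 1.5-fold were 732 rises (6.42%) and 356 falls (3.12%), and at least 2-fold were 254 rises (2.23%) and 175 falls (1.53%). The values of the groups did not overlap for 6240 genes (54.7%), among them 2528 of the genes called higher and 2677 of those called lower. The split into rises and falls depended on the scaling: library size alone gave 3330 higher and 2259 lower, and upper quartile factors 3361 and 2234. Gene length went with the direction as well. Among the 3803 shortest genes 17.8% were higher and 29% lower, and among the 3802 longest 30% were higher and 20.4% lower. With an offset for gene length, 2605 genes were higher and 2882 lower.

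**Figure D1:**
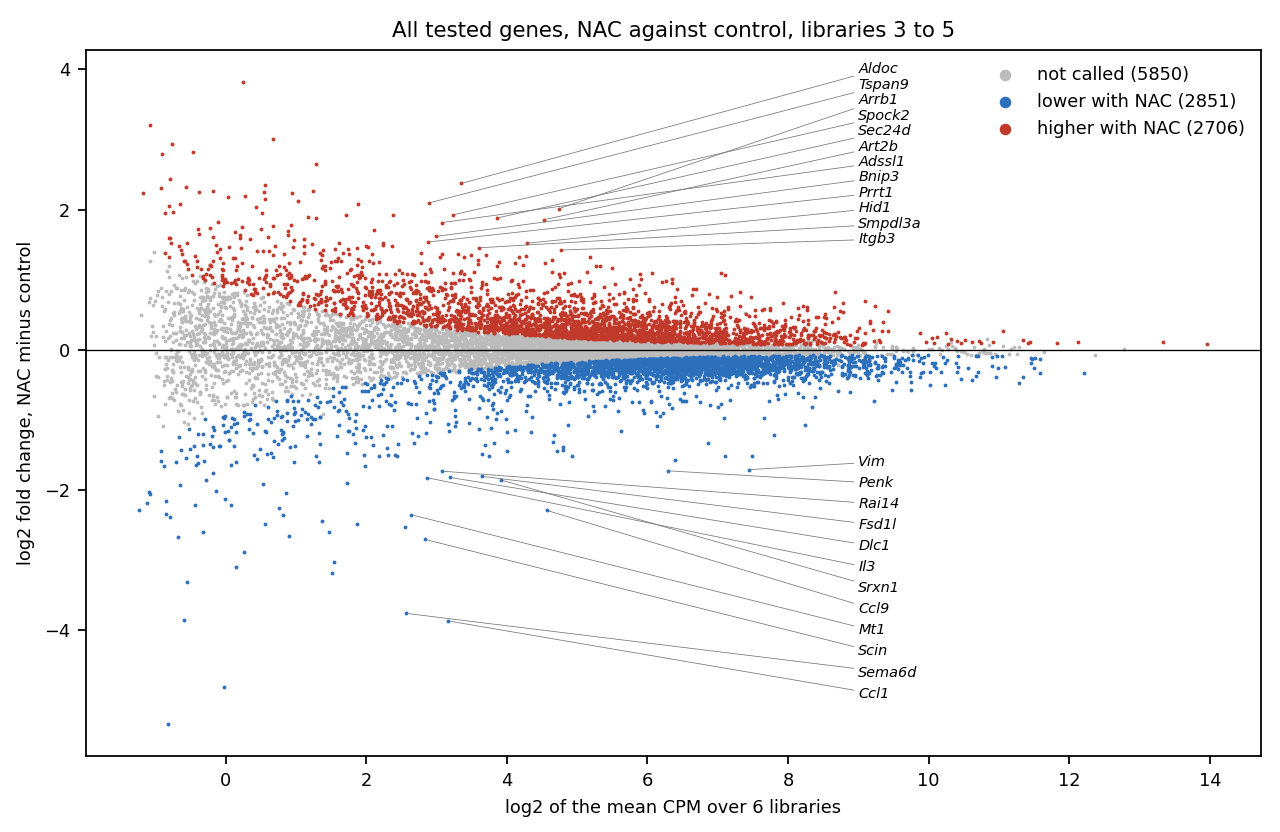
Log2 fold change with NAC against control (vertical axis) by the log2 of the mean CPM over the 6 libraries (horizontal axis), 1 point per tested gene, coloured by the call at an adjusted p of 0.05. The 2706 rises and 2851 falls lie mostly near 0, and the genes named are the 12 largest rises and 12 largest falls that the naming rule took.

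Most tested antioxidant genes under NRF2 control fell, as did single genes of selenium and zinc handling. Srxn1 (ENSMUSG00000032802, chromosome 2) encodes sulfiredoxin, which repairs over-oxidized peroxiredoxins, and Mt1 (ENSMUSG00000031765, chromosome 8) encodes metallothionein 1, which binds zinc and copper. Their promoters, from 250 bases before to 50 bases after the start site in RefSeq's GRCm38.p6, are shown because these are the 2 antioxidant and metal genes with the largest falls; capitals mark matches, on either strand, of TGACNNNGC (the core of the antioxidant response element) in Srxn1 and of TGCNCNC (the core of the metal response element) in Mt1. The Srxn1 window is chr2:152105274-152105573 on the plus strand and the Mt1 window chr8:94178839-94179138 on the plus strand.
Srxn1: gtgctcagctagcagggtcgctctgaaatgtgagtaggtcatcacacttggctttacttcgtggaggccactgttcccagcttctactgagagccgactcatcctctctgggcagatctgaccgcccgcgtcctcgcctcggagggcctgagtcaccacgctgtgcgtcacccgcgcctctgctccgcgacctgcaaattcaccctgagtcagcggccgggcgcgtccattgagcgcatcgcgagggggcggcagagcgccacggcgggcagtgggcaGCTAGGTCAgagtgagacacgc
Mt1: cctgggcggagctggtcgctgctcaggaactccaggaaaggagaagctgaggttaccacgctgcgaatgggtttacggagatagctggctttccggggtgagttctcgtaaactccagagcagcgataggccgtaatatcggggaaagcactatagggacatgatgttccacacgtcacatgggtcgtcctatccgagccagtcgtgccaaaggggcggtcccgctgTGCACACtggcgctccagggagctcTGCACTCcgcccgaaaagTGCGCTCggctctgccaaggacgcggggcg
The Srxn1 window held 1 match, which lay after the start site, and the Mt1 window 3. Among antioxidant genes with a promoter window, TGACNNNGC lay in 3 of 13 fallen, 0 of 2 risen and 2 of 4 that did not pass. Among metallothionein and metal transport genes, TGCNCNC lay in 6 of 7 fallen, 1 of 2 risen and 5 of 9 that did not pass. Of 27025 promoter windows of the same length, 12.5% held TGACNNNGC and 50.4% held TGCNCNC, so both motifs are common and a match is a description of the letters only.

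Srxn1 was at 24.2, 23.7 and 23 CPM in control 3, 4 and 5 and 6.81, 7.25 and 5.56 CPM in NAC 3, 4 and 5. Srxn1 fell by 1.85 on the log2 scale (SE 0.11, adjusted p = 5.15e-19). Each NAC library lay well under each control library, a 3.62-fold fall. Mt1 was at 10, 10.9 and 10.5 CPM in the control libraries and 2.89, 1.57 and 1.61 CPM in the NAC libraries. Mt1 fell by 2.35 on the log2 scale (SE 0.18, adjusted p = 6.52e-15). NAC 3 was the highest of the treated libraries, and the groups did not overlap, as the rule that named the largest falls required. Gpx1, the selenium-dependent peroxidase of the cytosol that removes hydrogen peroxide with glutathione, was at 167, 164 and 171 CPM in the control libraries and 66.6, 62.7 and 69.7 CPM in the NAC libraries. Gpx1 fell by 1.33 on the log2 scale (SE 0.04, adjusted p = 1.72e-28). Txnrd1, the selenoprotein that reduces thioredoxin, was at 270.3, 264 and 267 CPM in the control libraries and 137, 135 and 135 CPM in the NAC libraries. Txnrd1 fell by 0.98 on the log2 scale (SE 0.04, adjusted p = 9.74e-27). For both genes the 3 libraries of a group lay within a few percent of their mean and the groups were far apart.

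Of 26 tested antioxidant genes under NRF2 control 3 rose, 17 fell and 6 did not pass; the median log2 change of the list was -0.20, against 0.004 for all tested genes. Besides Srxn1 and Txnrd1, the falls included Nqo1, a quinone reductase (log2 change -1.34), Prdx1, a peroxiredoxin (-0.51), and Hmox1, heme oxygenase (-0.52). Slc7a11, the cystine importer, fell from 17.8 ± 1.94 to 13 ± 1.2 CPM (log2 fold change -0.45 ± 0.10 SE, adjusted p = 0.000364). Of the enzymes that make and recycle glutathione, Gclc, the catalytic subunit of the limiting ligase, had a log2 change of -0.27 and Gsr, glutathione reductase, of -0.42. The 3 rises were those of Ephx1, an epoxide hydrolase, of Blvrb, a biliverdin reductase (log2 change 1.06), and of Prdx6 (0.15). Ephx1 went from 24.5 ± 1.32 to 56 ± 0.835 CPM (log2 fold change 1.19 ± 0.06 SE, adjusted p = 2.77e-20).

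Among 35 genes of the glutathione and thioredoxin systems, which share members with the list above, 6 rose, 15 fell and 14 did not pass (median log2 change -0.05). The shares were 17.1% higher and 42.9% lower, against 23.7% and 25% of all tested genes. Txnip, which binds and blocks thioredoxin and lowers glucose uptake, rose from 108 ± 2.88 to 183 ± 3.81 CPM (log2 fold change 0.76 ± 0.04 SE, adjusted p = 5.26e-21). Glrx, a glutaredoxin, rose from 15.9 ± 1.83 to 24.3 ± 1.82 CPM (log2 fold change 0.62 ± 0.09 SE, adjusted p = 2.95e-07). Thioredoxin itself, Txn1, fell (log2 change -0.36). Of 23 tested selenoproteins and factors of their synthesis 4 rose (17.4%), 9 fell (39.1%) and 10 did not pass (median log2 change -0.05). Besides Gpx1 and Txnrd1, Selenow and Selenoh were among the falls. Selenow went from 68 ± 1.81 to 30.6 ± 1.58 CPM (log2 fold change -1.15 ± 0.06 SE, adjusted p = 5.85e-21). Selenoh went from 95.3 ± 6.78 to 49.5 ± 1.86 CPM (log2 fold change -0.95 ± 0.05 SE, adjusted p = 1.38e-19). Gpx4, the selenium-dependent peroxidase of membrane lipids, was at 147 ± 6.51 CPM in the controls and 143 ± 5.34 CPM under NAC (log2 change -0.04, adjusted p = 0.46) with overlapping groups. Sephs2, which makes the selenium donor, rose from 53.9 ± 2.21 to 75.1 ± 6.6 CPM (log2 fold change 0.48 ± 0.06 SE, adjusted p = 1.99e-09). Selenop, a carrier of selenium, rose from 13.2 ± 0.351 to 20.7 ± 1.99 CPM (log2 fold change 0.65 ± 0.10 SE, adjusted p = 3.02e-07).

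Of 23 genes of metallothionein and metal transport 3 rose, 8 fell and 12 did not pass, with a median log2 change of 0.02. The shares were 13% higher and 34.8% lower, against 23.7% and 25% of all tested genes. Mt1 was the 1 member that fell at least 1.5-fold. Slc30a1, the zinc exporter of the plasma membrane and a known MTF1 target, fell from 15 ± 1.41 to 10.6 ± 0.456 CPM (log2 fold change -0.51 ± 0.11 SE, adjusted p = 0.000146), and Mtf1 itself had a log2 change of -0.24. Slc30a7, a zinc transporter of the Golgi, rose from 39.4 ± 1.62 to 57.6 ± 4.33 CPM (log2 fold change 0.54 ± 0.06 SE, adjusted p = 3.74e-10). With library size alone 5 members rose in place of 3, and with upper quartile factors 6. Of 16 genes that make or break down cysteine 4 rose, 3 fell and 9 did not pass. These are 25% higher and 18.8% lower, near the 23.7% and 25% of all tested genes. Cth, which makes cysteine from cystathionine, was at 276, 289 and 275 CPM in the control libraries and 179.5, 177 and 183 CPM in the NAC libraries. Cth fell by 0.64 on the log2 scale (SE 0.03, adjusted p = 2.53e-20). Ahcy, which acts upstream of it, fell from 259.6 ± 10.9 to 196 ± 3.63 CPM (log2 fold change -0.40 ± 0.04 SE, adjusted p = 3.05e-13). Sqor, the mitochondrial enzyme that oxidizes hydrogen sulfide, rose (log2 change 1.31, adjusted p = 7.15e-06).

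**Figure D2:**
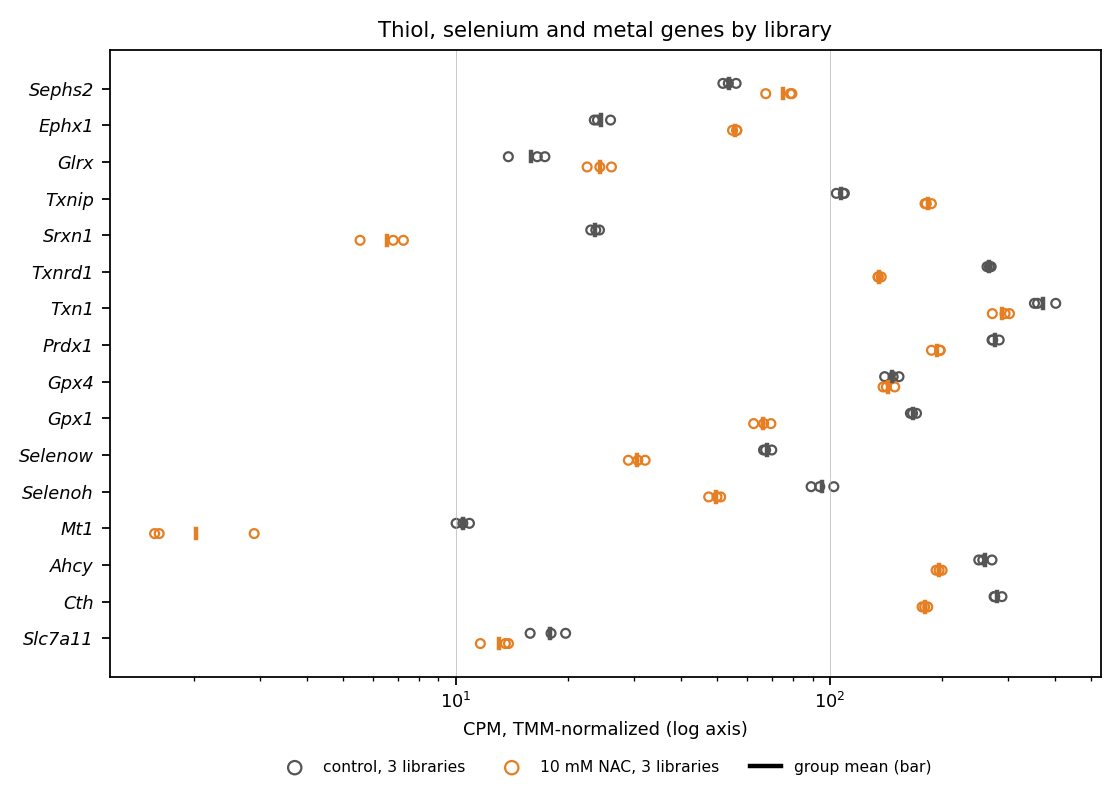
TMM-normalized CPM (log axis) of 16 genes of thiol, selenium, zinc and cysteine handling, 1 circle per library with 3 control and 3 NAC libraries and a bar at each group mean. The groups overlap for Gpx4 but not for Srxn1, Gpx1, Txnrd1 or Mt1, whose NAC values are all lower, nor for Ephx1, Txnip or Glrx, whose NAC values are all higher.

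Most tested genes of glycolysis, and most HIF-1 targets outside it, rose. Aldoc (ENSMUSG00000017390, chromosome 11), an aldolase isoform, had the largest rise under the naming rule. Bnip3 (ENSMUSG00000078566, chromosome 7), a mitochondrial protein that marks mitochondria for removal, is a textbook HIF-1 target. Its promoter window, chr7:138909457-138909756 on the minus strand in GRCm38.p6, is shown because Bnip3 had the largest rise of the HIF-1 targets outside glycolysis. Capitals mark the matches of ACGTG, the core of the hypoxia response element, which overlap as both strands of 1 palindrome.
Bnip3: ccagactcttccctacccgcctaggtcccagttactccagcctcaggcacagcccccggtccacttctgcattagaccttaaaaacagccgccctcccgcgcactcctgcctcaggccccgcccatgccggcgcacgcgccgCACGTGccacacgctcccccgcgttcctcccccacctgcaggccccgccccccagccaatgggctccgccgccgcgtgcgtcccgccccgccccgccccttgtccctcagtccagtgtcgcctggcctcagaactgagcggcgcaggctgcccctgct
ACGTG lay in 19.7% of the 27025 promoter windows. Among HIF-1 targets outside glycolysis it lay in 7 of the 11 risen genes that have a promoter window, in 3 of 4 that did not pass and in 0 of 1 that fell. Among glycolysis genes it lay in 3 of 13 risen and 4 of 5 fallen ones and in 4 of 4 that did not pass.

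Aldoc was at 2.66, 4.15 and 2.98 CPM in control 3, 4 and 5 and 17, 16.1 and 18.3 CPM in NAC 3, 4 and 5. Aldoc rose by 2.37 on the log2 scale (SE 0.14, adjusted p = 7.03e-19). Bnip3 was at 3.8, 4.15 and 3.71 CPM in the control libraries and 10.3, 13.2 and 12.5 CPM in the NAC libraries. Bnip3 rose by 1.62 on the log2 scale (SE 0.15, adjusted p = 9.46e-13). In both genes the lowest NAC library was more than double the highest control library. Of 19 HIF-1 targets outside glycolysis 12 rose, 1 fell and 6 did not pass, with a median log2 change of 0.37. Pdk1, the kinase that keeps pyruvate out of the mitochondrion, rose from 73.1 ± 1.55 to 134 ± 2.21 CPM (log2 fold change 0.87 ± 0.04 SE, adjusted p = 1.28e-21). Ero1a, the oxidase that forms disulfides in the endoplasmic reticulum, rose from 212 ± 8.49 to 284 ± 5.6 CPM (log2 fold change 0.43 ± 0.03 SE, adjusted p = 2.88e-14). P4ha2, a collagen prolyl hydroxylase subunit, had a log2 change of 0.76. The 1 fall was that of Adm, the peptide hormone adrenomedullin, at -1.64, whereas Vegfa, the angiogenic growth factor, moved by only 0.12.

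Of 23 genes of glucose uptake and glycolysis 14 rose, 5 fell and 4 did not pass, with a median log2 change of 0.20. Hk2, the inducible hexokinase, was at 171, 162 and 165 CPM in the control libraries and 93.4, 102 and 98.9 CPM in the NAC libraries. Hk2 fell by 0.76 on the log2 scale (SE 0.04, adjusted p = 3.01e-20). Slc2a1, the glucose transporter GLUT1, fell from 67.6 ± 1.94 to 51 ± 1.89 CPM (log2 fold change -0.40 ± 0.05 SE, adjusted p = 2.66e-08). Slc2a3, the transporter GLUT3, moved the other way, at 52.5, 54.3 and 48.8 CPM in the control libraries and 102, 97.5 and 108 CPM in the NAC libraries. Slc2a3 rose by 0.98 on the log2 scale (SE 0.05, adjusted p = 9.25e-21). The lactate exporter gene Slc16a3 also rose, from 20 ± 1.42 to 38.4 ± 1.94 CPM (log2 fold change 0.94 ± 0.08 SE, adjusted p = 2.13e-14). Ldha, lactate dehydrogenase A, had a log2 change of -0.11 and Ldhb, its partner subunit, 0.52. Per length, Slc2a1 was the more abundant transporter in control, at 19 against 7.05 FPKM for Slc2a3, and with NAC the levels were 14.8 and 14.3 FPKM, as the mean of the authors' values over 3 libraries. With library size alone or upper quartile factors, 3 glycolysis genes fell in place of 5.

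The 3 largest falls under the naming rule were those of Ccl1, Sema6d and Scin, ahead of Mt1. Ccl1 (ENSMUSG00000020702, chromosome 11), the chemokine ligand of CCR8, was at 15.7, 16.4 and 18.3 CPM in control 3, 4 and 5 and 1.53, 1.31 and 0.597 CPM in NAC 3, 4 and 5. Ccl1 fell by 3.86 on the log2 scale (SE 0.18, adjusted p = 2.31e-22). Sema6d (ENSMUSG00000027200, chromosome 2), a membrane semaphorin, was at 11.9, 9.27 and 11.9 CPM in the control libraries and 0.794, 0.849 and 0.777 CPM in the NAC libraries. Sema6d fell by 3.76 on the log2 scale (SE 0.21, adjusted p = 9.13e-20). Scin (ENSMUSG00000002565, chromosome 12), which encodes the actin-severing protein scinderin, was at 11.1, 12 and 13.9 CPM in the control libraries and 1.36, 1.89 and 2.45 CPM in the NAC libraries. Scin fell by 2.70 on the log2 scale (SE 0.18, adjusted p = 2.35e-17). In all 3 genes the NAC values were near 1 to 2 CPM, so the size of the fold rests on few reads. That the groups did not overlap was required by the naming rule. Vim (ENSMUSG00000026728, chromosome 2), the intermediate filament protein vimentin, fell at a high level, at 265, 269 and 267 CPM in the control libraries and 87.3, 78.9 and 79.1 CPM in the NAC libraries. Vim fell by 1.71 on the log2 scale (SE 0.04, adjusted p = 4.74e-34). Penk (ENSMUSG00000045573, chromosome 4), the precursor of the enkephalin peptides, was at 113, 126 and 122 CPM in the control libraries and 36.7, 33.2 and 39.1 CPM in the NAC libraries. Penk fell by 1.72 on the log2 scale (SE 0.06, adjusted p = 1.67e-28). The other large falls were those of Ccl9 (log2 change -2.29), a chemokine, Il3 (-1.82), a growth factor for myeloid cells, Dlc1 (-1.82), a GTPase-activating protein, Rai14 (-1.73), an actin-associated protein, and Fsd1l (-1.80).

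The largest rises after Aldoc included Tspan9 (ENSMUSG00000030352, chromosome 6), a tetraspanin, at 2.28, 2.53 and 3.53 CPM in the control libraries and 11.1, 11.5 and 13.4 CPM in the NAC libraries. Tspan9 rose by 2.10 on the log2 scale (SE 0.16, adjusted p = 5.61e-15). Arrb1 (ENSMUSG00000018909, chromosome 7), the adaptor beta-arrestin 1 that uncouples receptors from G proteins, was at 9.58, 12 and 10 CPM in the control libraries and 40.9, 43.9 and 44 CPM in the NAC libraries. Arrb1 rose by 2.02 on the log2 scale (SE 0.09, adjusted p = 4.26e-24). Art2b (ENSMUSG00000030651, chromosome 7), an ADP-ribosyltransferase on the T cell surface, was at 9.65, 9.75 and 10.5 CPM in the control libraries and 35.4, 36 and 37 CPM in the NAC libraries. Art2b rose by 1.86 on the log2 scale (SE 0.09, adjusted p = 1.68e-22). For Arrb1 and Art2b each NAC library was more than 3 times as high as each control library. Itgb3 (ENSMUSG00000020689, chromosome 11), the integrin beta 3 chain, was at 13.4, 16.4 and 14.5 CPM in the control libraries and 41.7, 39.6 and 38.2 CPM in the NAC libraries. Itgb3 rose by 1.43 on the log2 scale (SE 0.08, adjusted p = 1.38e-19). The remaining rises among the 12 were those of Spock2 (log2 change 1.93), a matrix proteoglycan, Sec24d (1.88), a coat protein of vesicles that leave the endoplasmic reticulum, Adssl1 (1.82), an adenylosuccinate synthase, Prrt1 (1.54), Hid1 (1.52) and Smpdl3a (1.46).

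**Figure D3:**
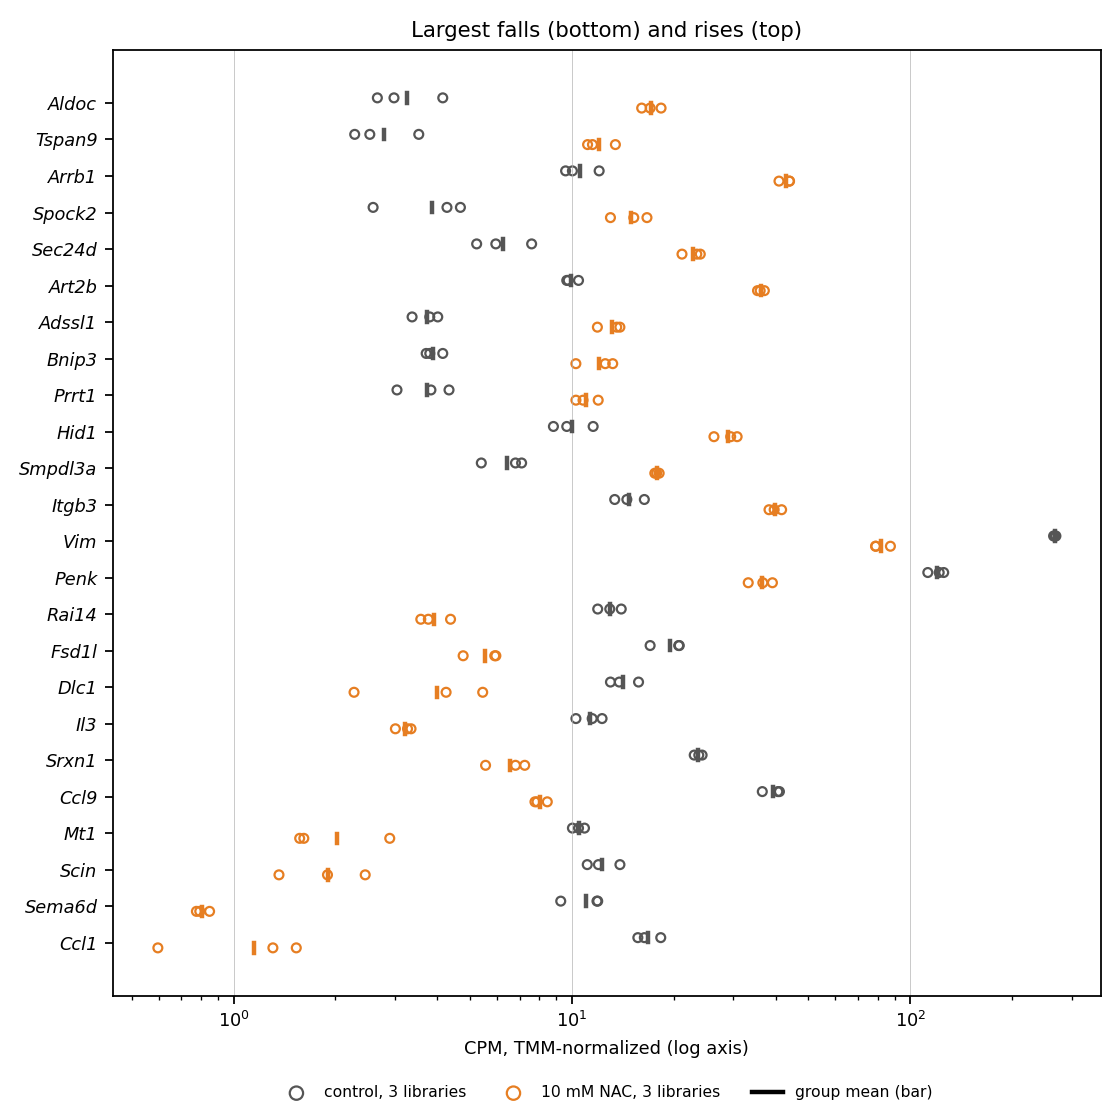
TMM-normalized CPM (log axis) of the 12 largest rises (top) and 12 largest falls (bottom) taken by the naming rule, 1 circle per library with 3 control and 3 NAC libraries and a bar at each group mean. In every gene shown the 3 NAC libraries lie on 1 side of the 3 control libraries, as the rule required.

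By amount of RNA, the largest falls in CPM were those of abundant genes. Hsp90ab1, a cytosolic HSP90 chaperone, fell from 5288 ± 3.74 to 4219 ± 40.7 CPM (log2 fold change -0.33 ± 0.03 SE, adjusted p = 8.28e-13). The cytoplasmic actins Actg1 and Actb fell from 2899 ± 41.8 to 2099 ± 69.1 CPM and from 3407 ± 47.3 to 2726 ± 93.1 CPM. Gzmb, granzyme B, mt-Cytb, cytochrome b, and Ppia, a peptidyl-prolyl isomerase, had log2 changes of -0.38, -0.25 and -0.39. The largest rise in CPM was that of Eef1a1, elongation factor 1 alpha, at 15504 ± 157 CPM in the controls and 16509 ± 483 CPM under NAC (log2 fold change 0.09 ± 0.03 SE, adjusted p = 0.0148). It was followed by mt-Co1, a subunit of cytochrome c oxidase, at 9861 ± 279 CPM in the controls and 10713 ± 203 CPM under NAC (log2 fold change 0.12 ± 0.03 SE, adjusted p = 0.00137). H2-K1, an MHC class I heavy chain, Ogt, the enzyme that attaches N-acetylglucosamine to proteins, and Luc7l2, a splicing factor, followed (log2 changes 0.27, 0.70 and 0.56). Rpsa, a ribosomal protein, was at 4283 ± 148 CPM in the controls and 4635 ± 265 CPM under NAC (log2 fold change 0.11 ± 0.03 SE, adjusted p = 0.00522) with overlapping groups. The call of Eef1a1 ended without control 3 (adjusted p = 0.0591) or NAC 5 (0.0513), and that of Rpsa without NAC 5 (0.0638).

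All 10 tested chemokine genes fell, with a median log2 change of -1.19, and 9 of the 10 fell at least 1.5-fold. Ccl3, an inflammatory chemokine, was at 306, 310.2 and 316 CPM in the control libraries and 134, 126 and 144 CPM in the NAC libraries. Ccl3 fell by 1.21 on the log2 scale (SE 0.04, adjusted p = 5.38e-29). Ccl5, also an inflammatory chemokine, was low and fell from 12.1 ± 0.0619 to 5.83 ± 0.404 CPM (log2 fold change -1.05 ± 0.13 SE, adjusted p = 3.62e-09). Xcl1, which attracts cross-presenting dendritic cells, fell from 115 ± 13.3 to 69.2 ± 5.59 CPM (log2 fold change -0.73 ± 0.09 SE, adjusted p = 0.000156). The smallest fall was that of Ccl4, from 136 ± 10.2 to 115 ± 5.61 CPM (log2 fold change -0.24 ± 0.05 SE, adjusted p = 2.96e-05). In each of these 4 genes the highest NAC library lay under the lowest control library.

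Of 19 cytokine genes 2 rose, 13 fell and 4 did not pass, with a median log2 change of -0.46. Tnfsf11, the cytokine RANKL, was at 281, 257 and 256 CPM in the control libraries and 93.8, 94.1 and 90.3 CPM in the NAC libraries. Tnfsf11 fell by 1.51 on the log2 scale (SE 0.04, adjusted p = 4.7e-32). Lta, lymphotoxin alpha, was at 191, 209 and 211 CPM in the control libraries and 76.6, 68.6 and 69.4 CPM in the NAC libraries. Lta fell by 1.51 on the log2 scale (SE 0.05, adjusted p = 1.72e-28). Csf2, the growth factor GM-CSF, fell from 38.4 ± 4.25 to 14.2 ± 1.73 CPM (log2 fold change -1.44 ± 0.09 SE, adjusted p = 1.43e-17). Il17a fell from 5.13 ± 0.925 to 0.552 ± 0.255 CPM (log2 fold change -3.17 ± 0.29 SE, adjusted p = 1.4e-12), where NAC values near 0.5 CPM stand for few reads. Ifng, which encodes interferon gamma, was at 167, 169.8 and 178 CPM in the control libraries and 119.7, 117 and 127 CPM in the NAC libraries. Ifng fell by 0.50 on the log2 scale (SE 0.04, adjusted p = 2.14e-14). Tnf fell slightly (log2 change -0.12, adjusted p = 0.0366). Il2 did not pass (log2 change -0.22, adjusted p = 0.272). The 2 rises were those of Il16 (from 41.8 ± 0.575 to 47.7 ± 0.408 CPM) and of Il4 (log2 change 1.38), the type 2 cytokine. A single rise was left without control 3, control 5 or NAC 3, and 4 rose with upper quartile factors or the length offset.

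Most genes of killing fell. Of 20 tested genes of cytotoxicity and effector function 4 rose, 14 fell and 2 did not pass, with a median log2 change of -0.21. Gzmb (ENSMUSG00000015437, chromosome 14), granzyme B, was at 2889, 2942 and 2951 CPM in the control libraries and 2238, 2196 and 2302 CPM in the NAC libraries. Gzmb fell by 0.38 on the log2 scale (SE 0.03, adjusted p = 7.74e-15). The 3 NAC libraries lay under all control libraries, a 1.3-fold fall. Prf1, the pore-forming protein perforin, fell from 45.7 ± 0.542 to 36.8 ± 1.59 CPM (log2 fold change -0.31 ± 0.06 SE, adjusted p = 4.72e-05). Per length, control Gzmb was at 2007 FPKM and Prf1 at 17.4 FPKM. Klrc1, the chain NKG2A of an inhibitory lectin receptor, fell from 68.7 ± 2.91 to 41 ± 2.18 CPM (log2 fold change -0.74 ± 0.06 SE, adjusted p = 5.52e-15). Klrd1, its partner CD94, rose from 92.9 ± 5.59 to 116 ± 3.57 CPM (log2 fold change 0.32 ± 0.05 SE, adjusted p = 5.91e-08). Zeb2, a transcription factor of terminal effector cells, fell from 52.2 ± 2.7 to 36.1 ± 1.7 CPM (log2 fold change -0.53 ± 0.06 SE, adjusted p = 9.73e-10). Gzmc had the largest fall of the list (-2.44), but its reads can be shared with near-identical granzyme genes, so its value is uncertain.

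Genes of interleukin 2 signalling went both ways, and most NF-kappaB genes that passed fell. Il2ra, the high-affinity receptor chain CD25, was at 1001, 985 and 999 CPM in the control libraries and 722, 736 and 712 CPM in the NAC libraries. Il2ra fell by 0.46 on the log2 scale (SE 0.03, adjusted p = 2.06e-17). Socs2 and Cish, feedback inhibitors that STAT5 induces, both fell. Socs2 went from 45 ± 1.78 to 15.7 ± 1.92 CPM (log2 fold change -1.52 ± 0.08 SE, adjusted p = 5.85e-21). Cish went from 134 ± 1.7 to 80.2 ± 5.07 CPM (log2 fold change -0.74 ± 0.04 SE, adjusted p = 1.26e-18). Pim2, a survival kinase, and Egr1, an early gene of receptor signalling, both rose. Pim2 went from 221 ± 3.87 to 306 ± 13 CPM (log2 fold change 0.47 ± 0.03 SE, adjusted p = 9.64e-16). Egr1 went from 307 ± 8.51 to 423 ± 4.03 CPM (log2 fold change 0.46 ± 0.03 SE, adjusted p = 9.07e-17). Over 24 genes of activation and interleukin 2 signalling 8 rose, 10 fell and 6 did not pass. Their median log2 change was -0.03, and 0.01 with library size alone. Among them 33.3% were higher and 41.7% lower, against 23.7% and 25% of all tested genes. Of 22 NF-kappaB genes 2 rose, 12 fell and 8 did not pass. Nfkb1 and Nfkb2, the precursors of the p50 and p52 subunits, had log2 changes of -0.56 and -0.59, and Cd83, an activation marker, fell from 150.0 ± 1.86 to 87.2 ± 1.7 CPM (log2 fold change -0.78 ± 0.04 SE, adjusted p = 1.1e-20). The rises were those of Nfkbid (0.43) and Tnip2 (0.16), and the call of Tnip2 ended when any library but NAC 4 was left out (adjusted p 0.052 to 0.134). Of 32 AP-1 and early response genes 10 rose (31.2%), 12 fell (37.5%) and 10 did not pass. Klf6 and Batf3 were among the falls (-0.70 and -0.74), and Dusp10, a MAP kinase phosphatase, among the rises (0.82).

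In contrast, most genes of the receptor complex rose. Of 31 genes of the T cell receptor complex and its proximal signalling 19 rose, 4 fell and 8 did not pass, with a median log2 change of 0.19. Cd3e, an invariant chain of the receptor, was at 119.7, 109.8 and 111 CPM in the control libraries and 177, 168 and 167 CPM in the NAC libraries. Cd3e rose by 0.59 on the log2 scale (SE 0.04, adjusted p = 1.71e-16). Cd8a and Cd8b1, whose library values are given above, rose as well (log2 fold change 0.39 ± 0.03 SE, adjusted p = 2.66e-14 and log2 fold change 0.46 ± 0.03 SE, adjusted p = 2.95e-15). Txk, a kinase of the TEC family, rose from 17.5 ± 1.68 to 32.2 ± 1.45 CPM (log2 fold change 0.87 ± 0.08 SE, adjusted p = 2.65e-12). Cd28, the costimulatory receptor, rose from 187 ± 3.82 to 299 ± 16.2 CPM (log2 fold change 0.67 ± 0.04 SE, adjusted p = 2.55e-20). Cd5, an inhibitory co-receptor whose level follows receptor signalling, was at 436, 434 and 422 CPM in the control libraries and 335, 299.7 and 318 CPM in the NAC libraries. Cd5 fell by 0.44 on the log2 scale (SE 0.03, adjusted p = 5.71e-15). No other gene of the list fell as much. In bulk RNA, fewer cells of a type and less RNA of a gene per cell cannot be told apart.

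Genes of the stem-like state rose in part. Of 23 tested stem-like and memory genes 13 rose, 2 fell and 8 did not pass, with a median log2 change of 0.26. Tcf7 (ENSMUSG00000000782, chromosome 11), which encodes TCF1, was at 190.0, 196 and 199 CPM in the control libraries and 264, 268 and 246 CPM in the NAC libraries. Tcf7 rose by 0.41 on the log2 scale (SE 0.04, adjusted p = 2.99e-13). The groups did not overlap, and the rise was 1.33-fold. Slamf6 (ENSMUSG00000015314, chromosome 1), a surface receptor used to mark stem-like exhausted cells, was at 40.1, 36.6 and 37.7 CPM in the control libraries and 79.6, 86.2 and 75.4 CPM in the NAC libraries. Slamf6 rose by 1.08 on the log2 scale (SE 0.06, adjusted p = 2.01e-20). Myb, a transcription factor that sustains stem-like cells, rose from 112 ± 1.57 to 172 ± 5.05 CPM (log2 fold change 0.62 ± 0.04 SE, adjusted p = 9.18e-18). Il7r, the interleukin 7 receptor of resting T cells, rose from 64.2 ± 2.52 to 89.8 ± 4.64 CPM (log2 fold change 0.48 ± 0.05 SE, adjusted p = 4.74e-11). Bcl6 and Cxcr5 rose at log2 changes of 0.97 and 0.99, but both averaged under 10 CPM in each group. Lef1, a partner factor of TCF1, did not pass (-0.06, adjusted p = 0.347). The 2 falls were those of Ccr7, the lymph node homing receptor, from 981 ± 10.2 to 882 ± 38.7 CPM (log2 fold change -0.15 ± 0.03 SE, adjusted p = 7.29e-05), and of Eomes, from 51.9 ± 2.61 to 46.1 ± 2.43 CPM (log2 fold change -0.17 ± 0.06 SE, adjusted p = 0.0165). The call of Eomes ended without control 3 (adjusted p = 0.0999) or NAC 5 (0.126) and with library size alone (0.0792).

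Inhibitory receptors did not move together. Pdcd1 (ENSMUSG00000026285, chromosome 1), which encodes PD-1, was at 98.1, 104 and 98 CPM in the control libraries and 91, 96.3 and 98.9 CPM in the NAC libraries. Pdcd1 differed by -0.07 on the log2 scale (SE 0.04, adjusted p = 0.216). The groups overlapped, and the difference did not pass. Lag3 was at 127, 131 and 136 CPM in the control libraries and 224, 217 and 227 CPM in the NAC libraries. Lag3 rose by 0.76 on the log2 scale (SE 0.04, adjusted p = 1.4e-21). Nt5e, the ectoenzyme CD73 that makes adenosine, was at 20.5, 20.9 and 20.7 CPM in the control libraries and 52.1, 50.9 and 53.2 CPM in the NAC libraries. Nt5e rose by 1.33 on the log2 scale (SE 0.07, adjusted p = 2.62e-21). Ctla4 rose from 233 ± 5.21 to 358 ± 3.52 CPM (log2 fold change 0.62 ± 0.03 SE, adjusted p = 7.6e-21). Tigit rose from 82.9 ± 2.16 to 108 ± 4.19 CPM (log2 fold change 0.38 ± 0.04 SE, adjusted p = 9.02e-10). Tox (ENSMUSG00000041272, chromosome 4), a nuclear factor that exhausted cells need, was at 16.4, 15.3 and 16.7 CPM in the control libraries and 19.4, 21.3 and 21 CPM in the NAC libraries. Tox rose by 0.35 on the log2 scale (SE 0.09, adjusted p = 0.00139). Havcr2 (ENSMUSG00000020399, chromosome 11), which encodes TIM-3, was low, at 2.13, 1.5 and 2.31 CPM in the control libraries and 0.624, 1.76 and 1.25 CPM in the NAC libraries. Havcr2 differed by -0.72 on the log2 scale (SE 0.33, adjusted p = 0.0638). Its groups overlapped, but it passed in limma-voom (adjusted p = 0.0431), without control 4 (0.039) and without NAC 4 (0.0171), each time lower with NAC. Over the 20 tested genes of the list 11 rose, 2 fell and 7 did not pass, with a median log2 change of 0.31. The falls were those of Lilrb4a (-0.66) and Nr4a2 (-0.10), and 1 was left without control 3, control 5, NAC 3 or NAC 5.

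Homing receptors changed one by one, with 13 of 26 rising, 5 falling and 8 not passing. Ccr4, a receptor of skin homing and type 2 cells, was at 40.7, 42.6 and 37.8 CPM in the control libraries and 14.4, 18.2 and 12.6 CPM in the NAC libraries. Ccr4 fell by 1.43 on the log2 scale (SE 0.09, adjusted p = 8.03e-17). Ccr9, the receptor of gut homing, rose by 1.88 on the log2 scale (adjusted p = 8.32e-08), and Ccr8, the receptor of the Ccl1 product, by 1.02. S1pr1, needed to leave lymphoid tissue, rose from 9.36 ± 1.3 to 14.7 ± 1.62 CPM (log2 fold change 0.66 ± 0.12 SE, adjusted p = 7.48e-06). Itgb1, the integrin beta 1 chain, fell from 399.6 ± 7.08 to 297 ± 6.7 CPM (log2 fold change -0.43 ± 0.03 SE, adjusted p = 1.52e-15), opposite to Itgb3.

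GTPases of the GIMAP family, which support the survival of resting lymphocytes, all rose: 8 of 8, at log2 changes of 0.15 to 1.01. Gimap3 was at 295, 299.6 and 287 CPM in the control libraries and 514, 505 and 545 CPM in the NAC libraries. Gimap3 rose by 0.83 on the log2 scale (SE 0.03, adjusted p = 3.07e-25). Gimap7 was at 36.1, 41 and 42.4 CPM in the control libraries and 81.8, 75.4 and 83.7 CPM in the NAC libraries. Gimap7 rose by 1.01 on the log2 scale (SE 0.06, adjusted p = 3.31e-19). Of 9 tested MHC class II genes, 7 rose, 1 fell and 1 did not pass, and the median log2 change was 1.15. H2-Ob and H2-Oa, the chains of the peptide-editing modulator H2-O, both rose. H2-Ob went from 1.4 ± 0.252 to 5.98 ± 0.997 CPM (log2 fold change 2.08 ± 0.23 SE, adjusted p = 1.58e-10). H2-Oa went from 1.35 ± 0.145 to 5.19 ± 0.622 CPM (log2 fold change 1.93 ± 0.23 SE, adjusted p = 1.95e-09). H2-DMa, a chain of the editor H2-M, rose from 22.7 ± 2.58 to 39.3 ± 3.52 CPM (log2 fold change 0.80 ± 0.08 SE, adjusted p = 2.79e-11). Cd74, the invariant chain and the most abundant of the list in CPM, fell, at 92, 99.7 and 94.1 CPM in the control libraries and 46.4, 42.7 and 45.5 CPM in the NAC libraries. Cd74 fell by 1.09 on the log2 scale (SE 0.05, adjusted p = 5.97e-22). B cells carry these molecules, so their markers are given beside them. Cd79b rose from 6.32 ± 1.77 to 11.1 ± 0.808 CPM (log2 fold change 0.79 ± 0.15 SE, adjusted p = 1.5e-05). Cd79a was at 0.874 ± 0.367 CPM in the controls and 0.887 ± 0.429 CPM under NAC (log2 fold change 0.09 ± 0.42 SE, adjusted p = 0.885). Ms4a1, Pax5 and Cd22 were all under 0.2 CPM on average in both groups. The sum over the 5 B cell markers was 5.85 to 8.57 CPM in control and 11.7 to 13.1 CPM with NAC, and its part in the MHC class II values was not tested.

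**Figure D4:**
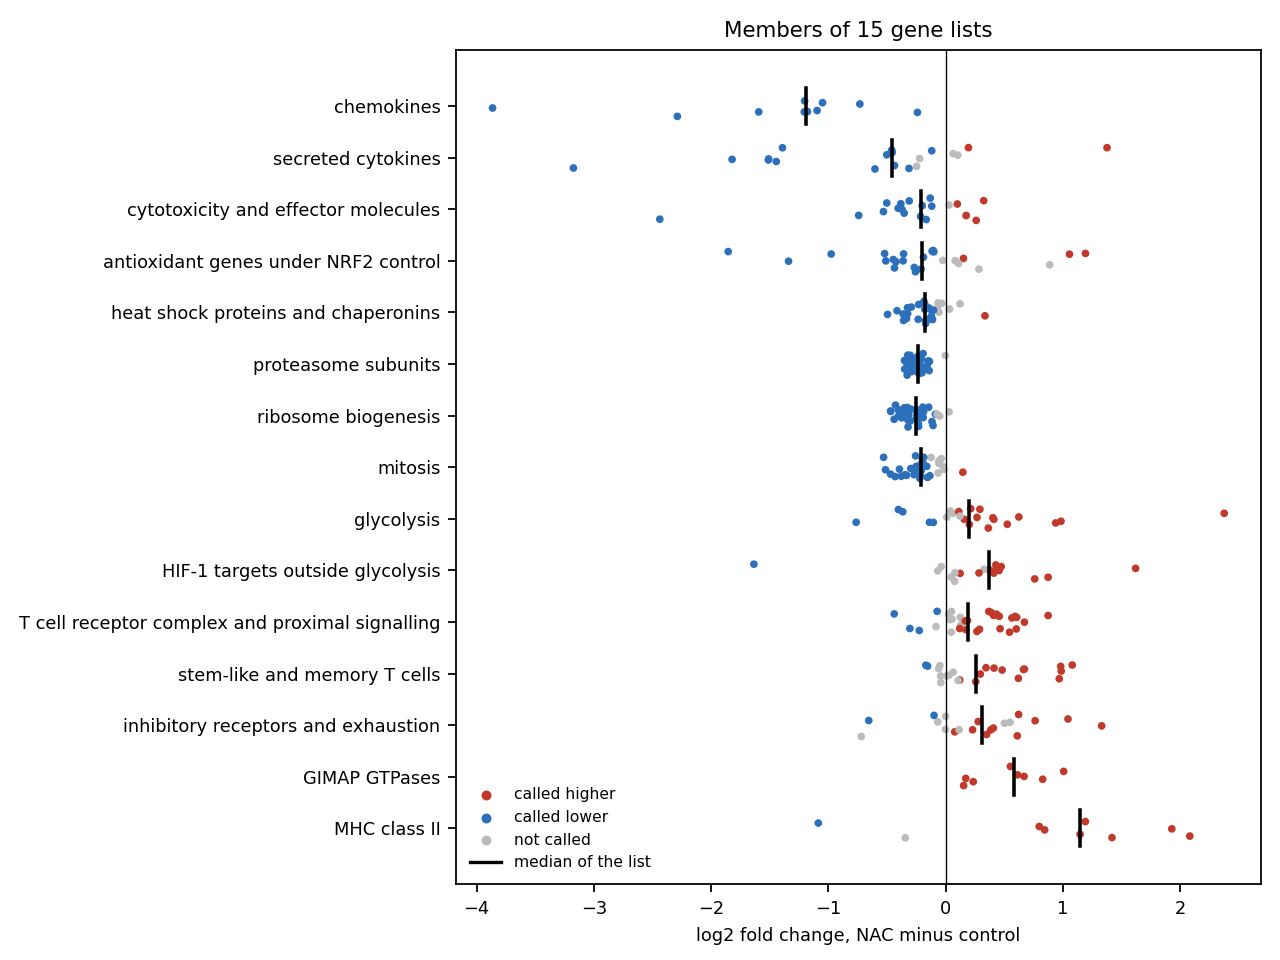
Log2 fold change with NAC against control of each tested member of 15 gene lists, 1 point per gene, coloured by its call, with a bar at the median of the list. Chemokines lie to the left of 0 and GIMAP genes to the right without exception, while glycolysis and MHC class II genes lie on both sides.

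In lists of the proteasome, ribosome biogenesis, DNA replication and mitosis most genes fell. Of 31 proteasome subunits 0 rose, 30 fell and 1 did not pass, all at log2 changes between -0.35 and 0, and of 38 genes of ribosome biogenesis 0 rose, 34 fell and 4 did not pass. Psmc5, a base ATPase of the proteasome, fell from 221 ± 6.93 to 173 ± 4.79 CPM (log2 fold change -0.35 ± 0.04 SE, adjusted p = 4.14e-11). Nop16 and Utp20 are factors of ribosomal RNA processing. Nop16 went from 91.4 ± 2.26 to 66 ± 2.4 CPM (log2 fold change -0.47 ± 0.05 SE, adjusted p = 2.99e-11). Utp20 went from 197 ± 4.73 to 143 ± 7 CPM (log2 fold change -0.47 ± 0.04 SE, adjusted p = 5.08e-14). Of 36 DNA replication genes 0 rose, 26 fell and 10 did not pass, and of 34 mitosis genes 1 rose, 26 fell and 7 did not pass. Pcna, the replication clamp, fell from 691 ± 9.5 to 538 ± 15 CPM (log2 fold change -0.36 ± 0.03 SE, adjusted p = 1.68e-13). Ccnb1, the cyclin of mitotic entry, fell from 216 ± 8.7 to 151 ± 5.63 CPM (log2 fold change -0.51 ± 0.04 SE, adjusted p = 1.71e-15). The 1 mitotic rise was that of Cenpa, the centromeric histone (0.15). In the G1 list 4 rose, 12 fell and 2 did not pass of 18. Ccne2, a cyclin of entry into S phase, was at 42.6, 49 and 48.2 CPM in the control libraries and 25, 23 and 25 CPM in the NAC libraries. Ccne2 fell by 0.94 on the log2 scale (SE 0.07, adjusted p = 1.71e-15). Cdkn1a, the inhibitor p21, also fell, from 109 ± 1.77 to 67.1 ± 0.882 CPM (log2 fold change -0.70 ± 0.05 SE, adjusted p = 1.03e-17). Cdkn1b, the inhibitor p27, rose from 67.6 ± 1.64 to 85.8 ± 4.89 CPM (log2 fold change 0.34 ± 0.05 SE, adjusted p = 1.73e-07).

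Most chaperones of the cytosol and mitochondrion fell, while 13 of 25 folding genes of the endoplasmic reticulum rose. Of 29 heat shock proteins and chaperonins 1 rose, 22 fell and 6 did not pass. Hsp90aa1, the inducible HSP90, fell from 1409.9 ± 27.6 to 999.5 ± 8.07 CPM (log2 fold change -0.50 ± 0.03 SE, adjusted p = 1.12e-18). Hspd1, the mitochondrial chaperonin, fell from 1606 ± 1.01 to 1205 ± 22.2 CPM (log2 fold change -0.41 ± 0.03 SE, adjusted p = 4.24e-16). Dnajb4 alone rose (0.33), and its call ended without control 5 (adjusted p = 0.0567). In the endoplasmic reticulum 13 rose, 4 fell and 8 did not pass. Xbp1, a transcription factor of secretory capacity, rose from 129 ± 5.44 to 176 ± 6.79 CPM (log2 fold change 0.45 ± 0.04 SE, adjusted p = 7.04e-13). The falls in this list were 4 in number, 1 or 2 when any library but NAC 5 was left out, and 0 with library size alone. Actin-regulating and cytoskeletal genes fell in 14 of 23, but Gsn, the actin-severing protein gelsolin, rose from 2.14 ± 0.294 to 8.21 ± 1.16 CPM (log2 fold change 1.93 ± 0.19 SE, adjusted p = 4.92e-12), opposite to its relative Scin.

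Most mitochondrial genes that passed fell, while cytosolic ribosomal proteins went both ways. Of 37 nuclear genes of the respiratory chain 0 rose, 25 fell and 12 did not pass; Ndufa4 fell from 122 ± 5.85 to 87.8 ± 5.26 CPM (log2 fold change -0.48 ± 0.05 SE, adjusted p = 4.81e-12). Of 76 mitochondrial ribosomal proteins 1 rose, 41 fell and 34 did not pass, and 26 fell with library size alone and 27 without NAC 4. Of 83 cytosolic ribosomal proteins 12 rose, 11 fell and 60 did not pass, a share under that of all tested genes in either direction. The falls numbered 18 without control 3, 7 without control 4 or control 5 and 6 without NAC 4, and 28 rose without control 5. In the tricarboxylic acid cycle 3 rose, 13 fell and 5 did not pass of 21; the isocitrate dehydrogenase genes Idh1 and Idh2, which make NADPH, rose (0.67 and 0.63) against the falls of Mdh2 (-0.30) and Pcx (-0.76). Of 12 genes on the mitochondrial genome 2 rose and 4 fell, among them mt-Cytb (log2 change -0.25). These are 16.7% higher and 33.3% lower, against 23.7% and 25% of all tested genes. With the offset for gene length their median log2 change went from -0.11 to -0.01. That of mitochondrial ribosomal proteins went from -0.17 to -0.1, and that of nuclear respiratory chain genes from -0.15 to -0.13.

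Among genes of amino acid and nucleotide supply, falls were more frequent than rises. Of 34 targets of ATF4, the factor of the amino acid response, 5 rose, 19 fell and 10 did not pass. With library size alone 9 rose. Atf3 fell from 75.5 ± 5.96 to 51.9 ± 1.98 CPM (log2 fold change -0.54 ± 0.06 SE, adjusted p = 3.55e-11). Ddit4, an inhibitor of mTOR, rose from 72.5 ± 2.11 to 92.3 ± 2.76 CPM (log2 fold change 0.35 ± 0.05 SE, adjusted p = 3.46e-08). Of 20 aminoacyl-tRNA synthetases 0 rose, 12 fell and 8 did not pass, and of 18 amino acid transporters 6 rose, 9 fell and 3 did not pass. For the transporters the shares were 33.3% higher and 50% lower, against 23.7% and 25% of all tested genes. In serine, folate and one-carbon metabolism 2 rose, 12 fell and 4 did not pass, and in purine and pyrimidine synthesis 4 rose, 18 fell and 4 did not pass. Tyms, thymidylate synthase, was at 112, 112 and 112 CPM in the control libraries and 67.6, 66.7 and 68.8 CPM in the NAC libraries. Tyms fell by 0.73 on the log2 scale (SE 0.04, adjusted p = 2.12e-18). Rrm2, a subunit of ribonucleotide reductase, fell from 366 ± 7.48 to 263 ± 3.85 CPM (log2 fold change -0.47 ± 0.03 SE, adjusted p = 7.13e-17).

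**Figure D5:**
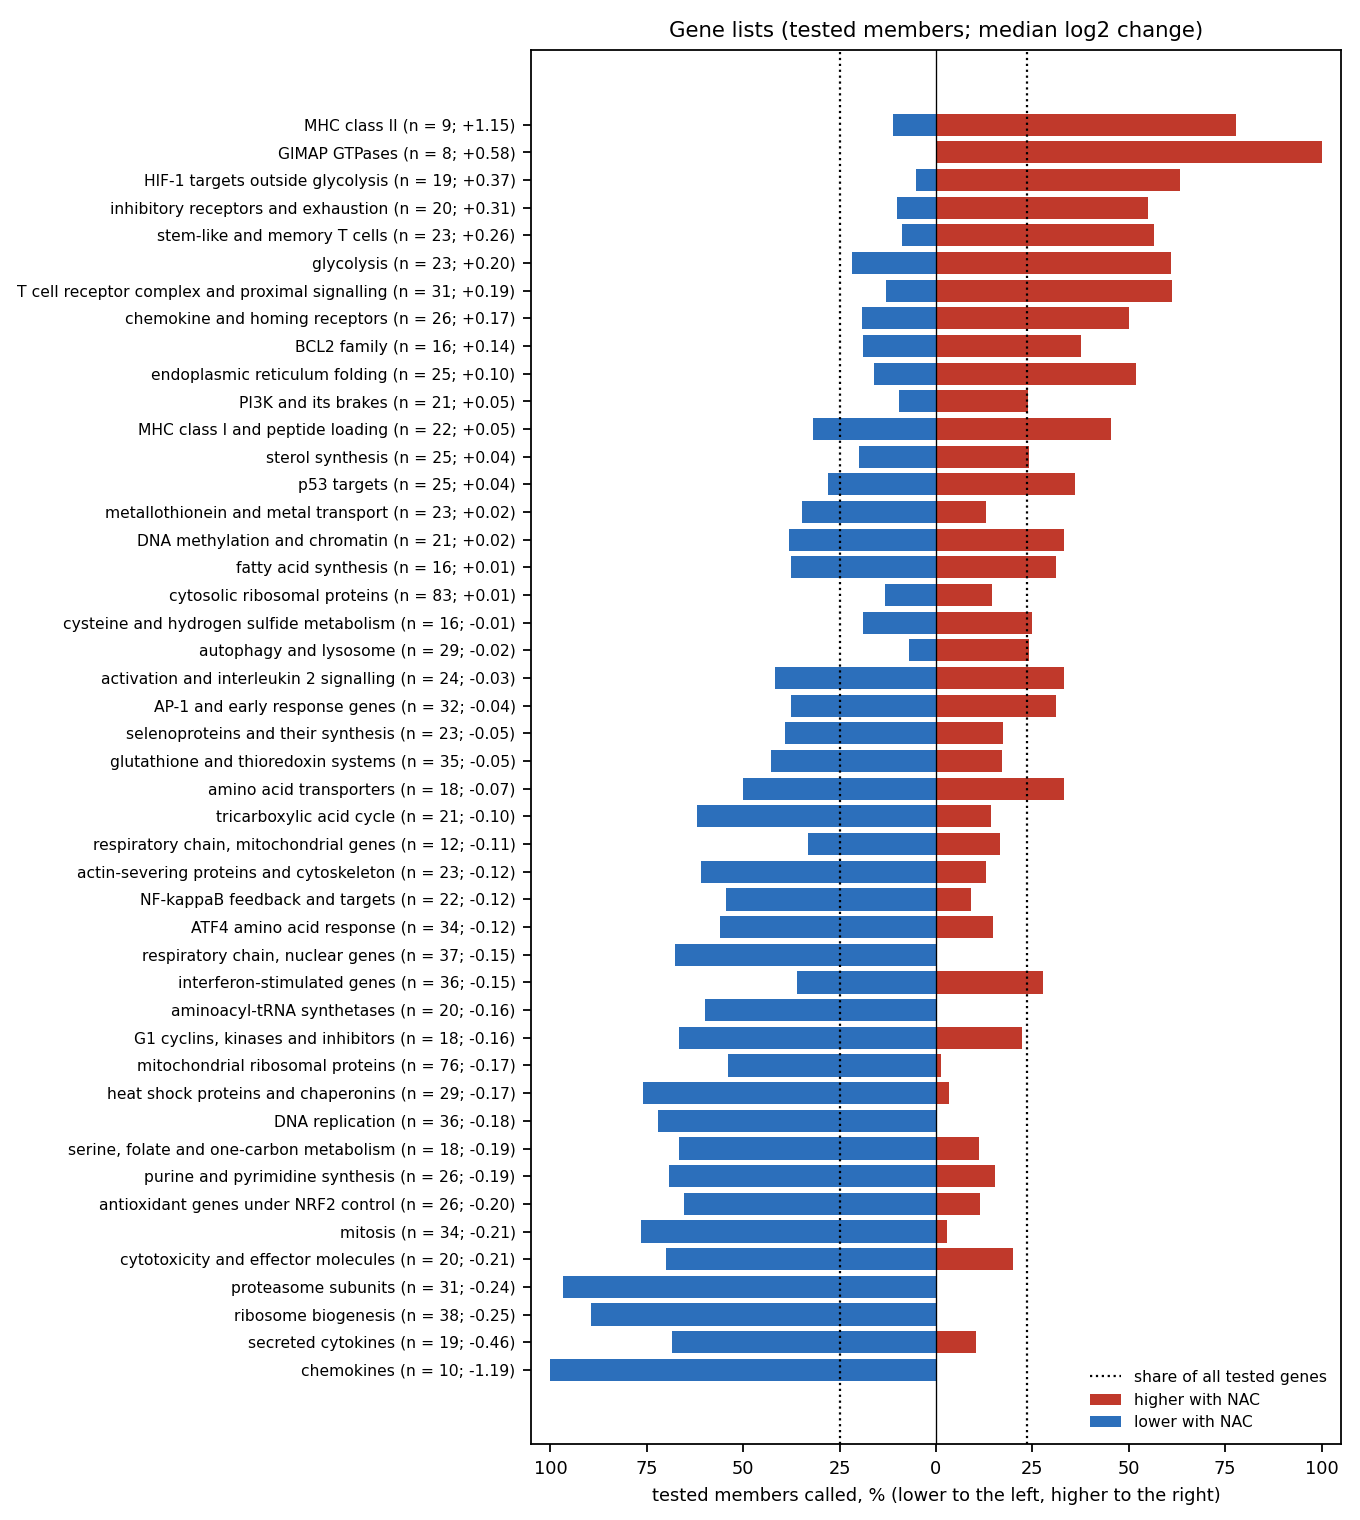
Share of the tested members of 46 gene lists that were lower (left) or higher (right) with NAC, in percent, ordered by the median log2 change given with n beside each name; dotted lines mark 25% lower and 23.7% higher among all tested genes. Chemokines, proteasome subunits and ribosome biogenesis genes stand at the bottom, and MHC class II and GIMAP genes at the top.

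Marker genes of other cell types differed in level. Those of regulatory T cells summed to 35.7 to 38.4 CPM in control and 27.2 to 33 CPM with NAC. Nearly all of this was Ikzf4, which fell from 36.5 ± 1.52 to 28.6 ± 2.68 CPM (log2 fold change -0.35 ± 0.07 SE, adjusted p = 6.84e-05), while Foxp3, the defining factor of these cells, was at 0.969 ± 0.0555 CPM in the controls and 0.965 ± 0.402 CPM under NAC (adjusted p = 0.953). The 7 myeloid markers summed to 13.8 to 16 CPM in control and 11.6 to 14.6 CPM with NAC. Of these, Cd68 was at 14.3 ± 1.22 CPM in the controls and 12.7 ± 1.43 CPM under NAC (adjusted p = 0.204), and the other 6, among them Csf1r, Lyz2 and Itgam, averaged under 0.3 CPM in both groups. Markers of neutrophils had no read in any of the 6 libraries, and those of natural killer cells summed to at most 0.304 CPM in a library. Pf4, a platelet and myeloid chemokine that is not in the chemokine list, had 13, 24 and 15 reads in the controls and 0, 0 and 1 read with NAC. Markers of mast cells and basophils summed to 2.2 to 2.92 CPM in control and 0.956 to 1.25 CPM with NAC. Of the markers of helper T cells, Zbtb7b, the factor of the CD4 lineage, rose from 17.9 ± 0.735 to 27.9 ± 1.5 CPM (log2 fold change 0.64 ± 0.08 SE, adjusted p = 1.22e-08). Cd40lg was at 1.01 ± 0.178 CPM in the controls and 1.25 ± 0.217 CPM under NAC (log2 fold change 0.30 ± 0.35 SE, adjusted p = 0.513). The part of these cells in the results was not tested.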

How the data were processed

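Bulk RNA sequencing was made from 1.3 µg of total RNA per library, per the labels' protocols. Per the file headers, each library has a column of read counts and one of FPKM in the deposited table. The test used the authors' counts unchanged. The authors' FPKM values scale these counts to gene length and library total; they were used only to compare levels between genes. The submitters' processing notes name GRCm38 and mm10. The sources used here do not give the aligner, the counter or the annotation. The table's own coordinates do not match that build throughout, so genes are placed by chromosome only. Whether reads were counted by strand is not given either, so overlapping genes can share reads.

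Counts of libraries 3 to 5 entered edgeR 4.0.16 in R 4.3.3 (glmQLFit with robust estimation and glmQLFTest) after filterByExpr and TMM normalization, two-sided, with Benjamini-Hochberg adjustment over the 11407 genes tested and a threshold of 0.05. Log2 fold changes are NAC minus control, the SE is the change over the square root of F, and means carry the SD over 3 libraries per group. The test was checked on data simulated with its own fitted dispersions and a small part of the genes changed. That check does not cover data in which 48.7% of genes pass. Totals of 13.3 to 17.37 M reads bound counting error only. The symbol of 22 rows is shared with another row.

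The libraries, the 46 gene lists and the markers were chosen with earlier results of these data known. Named genes are the 12 largest rises and falls with non-overlapping groups and at least 10 CPM in the higher group, the 6 largest rises and falls in CPM, Gzmb, Havcr2, Ifng, Pdcd1, Slamf6, Tcf7 and Tox, up to 2 rises and 2 falls per list, and the markers. Other list members named as examples were chosen after their values were seen. Promoters are RefSeq's for GRCm38.p6, matched by symbol. Library numbers were checked for pairing by the correlation, across genes, of deviations from the group means. For same-numbered libraries it was -0.03, 0 and 0, so no shared shift by number was seen. Whether they shared an animal, culture or preparation cannot be told from this, and the labels do not say. Alternatives were DESeq2 1.42.0 size factors and Wald test, library size alone, upper quartile factors, library sizes without the 20 most abundant genes, limma 3.58.1 (voom), a test against a fold of 1.5, no robust estimation, a minimum of 10 counts and no filter on low counts, a replicate block, and each library left out; an offset for gene length was added after the data had been seen. Some genes are not reported here.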

Additional observations from a re-analysis of the deposited data

How the results depend on the processing

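Tested against a fold of 1.5 in place of no change, 213 genes were higher and 144 lower, and 148 and 106 of those were at least 2-fold; this test asks for more than the main one. Under each other alternative the counts of higher and lower genes, and of those at least 2-fold, stayed within 1.5 times the main counts. Higher genes ranged from 2095 with DESeq2's Wald test to 3361 with upper quartile factors. Library sizes without the 20 most abundant genes gave the same 2706 and 2851 calls. TMM factors offset such a change of library size, so that setting is no separate check. With the replicate block 2631 genes were higher and 2776 lower, and 5385 genes were called in both fits; the block ended the calls of H2-Q7 (adjusted p = 0.105) and Rpl22l1 (0.0597). Leaving out 1 library gave 2364 to 2561 higher and 2503 to 2710 lower genes, 259 to 277 at least 2-fold higher and 172 to 196 at least 2-fold lower. No called gene changed sign under any alternative run, except 2 genes under the offset for gene length. Library size alone and upper quartile factors moved the median log2 change of all genes from 0.004 to 0.048 and 0.049, and calls near that size went with it. The medians of lists near 0 (activation, AP-1, cysteine and autophagy genes) changed sign with upper quartile factors, as part of this shift of all genes. They went from -0.03, -0.04, -0.01 and -0.02 to 0.01, 0.01, 0.04 and 0.03. With the offset for gene length, the medians of metallothionein and chromatin genes went from 0.02 to -0.05 and from 0.02 to -0.06. Depth limits genes under about 1 CPM, such as Pf4.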

Other observations

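Of 36 tested interferon-stimulated genes 10 rose, 13 fell and 13 did not pass. These are 27.8% higher and 36.1% lower, against 23.7% and 25% of all tested genes, and the genes below are given as single genes. Isg15, a ubiquitin-like modifier, fell from 8.67 ± 1.6 to 3.84 ± 0.235 CPM (log2 fold change -1.18 ± 0.16 SE, adjusted p = 5.23e-08), and Ifih1, the RNA sensor MDA5, from 33.9 ± 1.88 to 19.9 ± 1.53 CPM (log2 fold change -0.77 ± 0.08 SE, adjusted p = 2.79e-11). Ly6a, the surface protein Sca-1, was at 77.9, 83.5 and 91.4 CPM in the control libraries and 188, 180.4 and 172 CPM in the NAC libraries (log2 fold change 1.09 ± 0.05 SE, adjusted p = 1.21e-22), and the guanylate-binding proteins Gbp4 and Gbp7 rose at log2 changes of 0.41 and 0.37. H2-T22, a class Ib heavy chain, rose from 134 ± 3.91 to 181 ± 5.9 CPM (log2 fold change 0.43 ± 0.04 SE, adjusted p = 8.28e-13). Psme2, a proteasome activator subunit, fell from 304 ± 16.8 to 219 ± 11.6 CPM (log2 fold change -0.47 ± 0.04 SE, adjusted p = 2.3e-13). In MHC class I and peptide loading 10 rose, 7 fell and 5 did not pass of 22. The shares were 45.5% higher and 31.8% lower, against 23.7% and 25% of all tested genes. Without NAC 3, 4 of these genes fell.

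In lipid synthesis single genes changed in both directions. Fasn, fatty acid synthase, was at 418, 408 and 411 CPM in the control libraries and 259, 271 and 244 CPM in the NAC libraries (log2 fold change -0.68 ± 0.03 SE, adjusted p = 1.88e-21), while Scd2, a desaturase that acts on its products, was at 485, 469.6 and 463 CPM in the control libraries and 713, 758 and 722 CPM in the NAC libraries. Scd2 rose by 0.63 on the log2 scale (SE 0.03, adjusted p = 2.39e-21). The groups did not overlap in either gene. Of 16 fatty acid synthesis genes 5 rose, 6 fell and 5 did not pass, and of 25 sterol synthesis genes 6 rose, 5 fell and 14 did not pass. The shares were 31.2% higher and 37.5% lower in the first list and 24% and 20% in the second, against 23.7% and 25% of all tested genes, with medians of 0.01 and 0.04. Idi1, an isomerase early in the sterol pathway, fell from 111 ± 5.48 to 72.8 ± 2.96 CPM (log2 fold change -0.61 ± 0.05 SE, adjusted p = 4.2e-15), and Dhcr7, its last reductase, rose from 19.1 ± 2.01 to 28.7 ± 2.27 CPM (log2 fold change 0.59 ± 0.09 SE, adjusted p = 1.51e-07).

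Among p53 targets 9 rose, 7 fell and 9 did not pass of 25, and 5 rose without control 5. The shares were 36% higher and 28% lower, against 23.7% and 25% of all tested genes. Trp53inp1, a stress-induced regulator of autophagy and cell death, was at 90.7, 90.5 and 84.5 CPM in the control libraries and 181, 199 and 177 CPM in the NAC libraries. Trp53inp1 rose by 1.07 on the log2 scale (SE 0.04, adjusted p = 4.26e-24). Cdkn1a, a p53 target given above with the G1 genes, had the largest fall of the list (log2 change -0.70, adjusted p = 1.03e-17). In the BCL2 family 6 rose, 3 fell and 7 did not pass of 16; Bcl2l11, the death activator BIM, rose from 69.2 ± 2.34 to 103 ± 2.84 CPM (log2 fold change 0.57 ± 0.05 SE, adjusted p = 2.52e-14) and Bcl2l1, the survival protein BCL-XL, fell from 294 ± 11 to 219 ± 6.45 CPM (log2 fold change -0.43 ± 0.03 SE, adjusted p = 2.85e-14). Pik3ip1, an inhibitor of PI3K on resting T cells, rose from 17.6 ± 0.66 to 36.4 ± 0.931 CPM (log2 fold change 1.05 ± 0.08 SE, adjusted p = 9.55e-16). Of 21 genes of PI3K and its brakes 5 rose, 2 fell and 14 did not pass, of 21 chromatin genes 7 rose, 8 fell and 6 did not pass, and of 29 autophagy and lysosome genes 7 rose, 2 fell and 20 did not pass. In the PI3K list 1 fell without control 4, NAC 3 or NAC 5. In the autophagy list 5 fell without control 3 and 1 without control 5. The shares higher and lower were 37.5% and 18.8% in the BCL2 family and 23.8% and 9.52% in the PI3K list. For chromatin genes they were 33.3% and 38.1%, and for autophagy and lysosome genes 24.1% and 6.9%. The higher shares of the PI3K and the autophagy and lysosome lists lay near the 23.7% of all tested genes. The other shares lay further from the 23.7% higher and 25% lower.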
